A study of Mus musculus with 6 samples.

Results

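The expression landscape of the wild-type adult mouse olfactory epithelium, the tissue that holds the odour-sensing neurons, was described from 3 of the 6 RNA sequencing libraries of the series. The 3 libraries were the wild-type (WT) ones, made from NMRI mice, an outbred strain, with both copies of the gene for the cotransporter NKCC1 intact. The mixed pool held 2 epithelia of each sex, and the female and the male pool each held epithelia of 3 mice. The age is given only as adult. All libraries were normalised with duplex-specific nuclease, which digests the cDNA that reanneals first and so compresses the values of abundant RNAs. Total RNA had been cleaned on columns with a DNase step. The ranking took each gene symbol of the deposited table by its mean over the 3 pools, in FPKM (fragments per kilobase of transcript, relative to all mapped fragments of a library), so levels of different genes are compared per length. It covered 21881 symbols on 22310 rows, since the row of highest mean stood for each of the 221 repeated symbols. Each kind of pool had 1 library, and the labels do not say whether an animal contributed to more than 1 pool. The spread between pools is therefore given as a standard deviation (SD, n = 3 pools) or as a ratio, with no test.

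In the olfactory epithelium, sensory neurons detect odours with G protein-coupled receptors on their cilia, and each mature neuron mostly uses a single receptor gene. Sustentacular cells, the supporting cells, wrap the neurons and carry enzymes that break down inhaled chemicals, while Bowman's glands and other nasal glands secrete mucus with lipocalins, which carry small hydrophobic molecules. Globose and horizontal basal cells replace neurons and supporting cells through life.

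The 10 genes at the top of the ranking all encode small secreted proteins, and promoters are shown for 9 genes at or near the top, because the X-linked odorant-binding genes among them moved together between pools. They were taken from the RefSeq promoter table of build GRCm38.p6, as the first entry of each gene on its strand, and cover the 110 bases before the annotated start. Capitals mark the letters TATAAA or TATATA, the core of the TATA box. Gm14743, Gm14744, 5430402E10Rik, Obp1a and Gm5938 lie close together on chromosome X, Lcn14 is the gene now named Obp2b, Plunc is now Bpifa1 and Expi is now Wfdc18.
Gm14743 (chrX:78245922-78246031, minus strand): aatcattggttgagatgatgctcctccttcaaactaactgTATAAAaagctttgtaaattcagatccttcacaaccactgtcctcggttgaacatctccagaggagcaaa
Gm14744 (chrX:77864648-77864757, plus strand): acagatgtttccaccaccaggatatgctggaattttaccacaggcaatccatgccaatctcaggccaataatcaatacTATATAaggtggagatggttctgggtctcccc
5430402E10Rik (chrX:77925063-77925172, minus strand): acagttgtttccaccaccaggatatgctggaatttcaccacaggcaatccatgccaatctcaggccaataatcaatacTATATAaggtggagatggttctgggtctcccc
Obp1a (chrX:78091375-78091484, minus strand): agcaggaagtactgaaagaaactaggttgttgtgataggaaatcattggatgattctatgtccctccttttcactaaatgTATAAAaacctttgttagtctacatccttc
Gm5938 (chrX:78125357-78125466, plus strand): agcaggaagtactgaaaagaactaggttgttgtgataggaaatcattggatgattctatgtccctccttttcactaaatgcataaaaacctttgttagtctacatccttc
Lcn14 (chr2:25736897-25737006, plus strand): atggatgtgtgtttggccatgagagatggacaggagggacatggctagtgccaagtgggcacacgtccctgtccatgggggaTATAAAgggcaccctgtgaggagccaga
Plunc (chr2:154142770-154142879, plus strand): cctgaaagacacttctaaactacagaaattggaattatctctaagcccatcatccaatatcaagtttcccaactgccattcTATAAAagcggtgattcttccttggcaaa
Expi (chr11:83708894-83709003, plus strand): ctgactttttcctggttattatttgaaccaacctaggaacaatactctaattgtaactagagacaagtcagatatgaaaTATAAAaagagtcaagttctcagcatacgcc
Cyp2a5 (chr7:26835229-26835338, plus strand): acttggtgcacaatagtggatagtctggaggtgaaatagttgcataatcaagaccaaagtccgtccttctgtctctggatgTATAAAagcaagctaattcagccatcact

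Either motif was searched on the gene's strand in the 250 bases before the start. A gene counted once, as a match if any of its promoter entries held the motif. It stood in 15 of the 25 top-30 genes that have an entry in the promoter table (60%), against 13.4% of all 27025 genes there. Among genes of the secreted families that averaged 100 FPKM or more it stood in 13 of 21 (61.9%), against 14.5% of 482 other genes at that level. These sets share genes, and near-identical copies such as Gm14744 and 5430402E10Rik counted separately. The motif did not follow level throughout: 19.9% of genes below 1 FPKM held it, 9.90% at 1 to 10 and 6.48% at 10 to 100 FPKM. At 100 to 1000 FPKM 14.2% held it, and at 1000 FPKM or more 50%. Of the mature olfactory neuron markers, 1 of 14 genes held it (7.14%), and of the sustentacular markers 6 of 15 (40%). Of 935 odorant receptor genes, 33.5% held it. In the window 45 to 15 bases before the start, where a TATA box usually lies, 3.10% of them did, against 44% of the top-30 and 3.77% of all genes. With TATAAA or TATATA on either strand, 60% of the top-30 genes and 18.0% of all genes held it. Gm14743 had its motif 70 bases before the annotated start, and Gm5938 had neither motif in the bases shown. A match is a description of these letters only.

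Of the 21881 symbols, 13837 (63.2%) averaged 1 FPKM or more, 6604 at least 10, 628 at least 100 and 39 at least 1000 FPKM. In each of the 3 pools separately, 12894 reached 1 FPKM, and 3531 symbols were listed at 0 in every pool. The sum was concentrated in few genes: 150 genes held 50% of it and 4720 genes held 90%. The FPKM sum was 518765 in the mixed, 686950 in the female and 524006 in the male pool. The depth, estimated from low values because counts are not used here, was near 3580000 fragments in the mixed, 11220000 in the female and 14210000 in the male pool, so low genes are measured least well in the mixed pool. Pearson correlations of log2(FPKM + 1) over the 13837 genes were 0.93 between mixed and female, 0.96 between mixed and male and 0.97 between female and male pools, across genes, which are not independent.

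The female pool stood apart in level, and this touches every value below. By correlation it was closest to the male pool, and both lower correlations involved the mixed pool. The female pool was the lowest of the 3 pools for 81.9% of the 13837 genes, and the mixed pool was the highest for 65.7%. The median gene differed by 0.56 on the log2(FPKM + 1) scale for mixed over female, 0.16 for mixed over male and -0.41 for female over male. The 10 most abundant genes of each pool held 15.5% of the sum in the mixed, 45.7% in the female and 16.4% in the male pool. FPKM are relative to all mapped fragments of a library, so the values of different classes depend on each other. Why the female pool was the lowest for most genes was not tested. Dividing each pool by its median-of-ratios factor (1.22 mixed, 0.767 female, 1.07 male) aligns the median gene between pools by construction. The median gene was then at -0.02 for mixed over female and 0.00 for female over male. Directions of whole gene groups are given below beside the median of all genes.

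**Figure D1:**
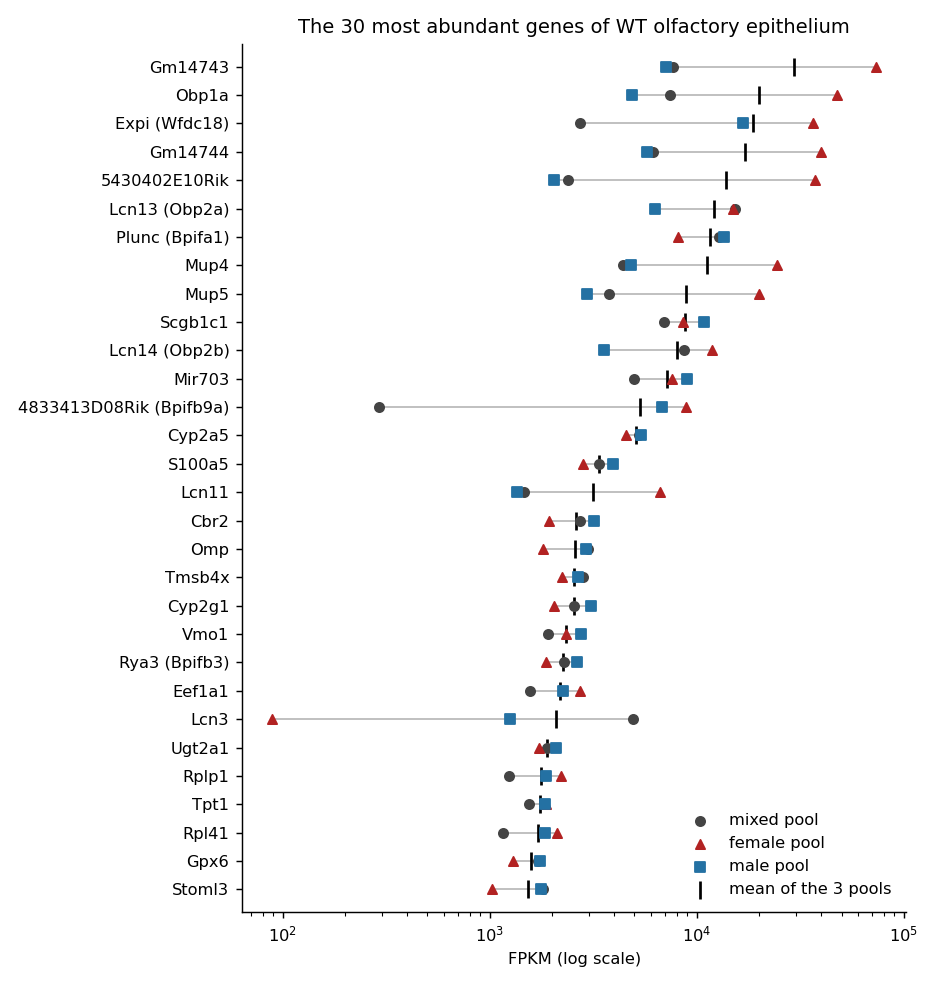
FPKM of the 30 most abundant genes (rows) in the mixed, female and male WT pool on a log axis, with the mean of the 3 pools as a black bar; names in brackets are current RefSeq symbols. The X-linked odorant-binding genes and Mup4, Mup5 and Lcn11 lie far to the right in the female pool, whereas Cyp2a5 and Ugt2a1 have almost the same value in all 3 pools.

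Secreted proteins led the ranking. All 10 of the most abundant genes and 15 of the top 30 belonged to 5 classes: X-linked odorant-binding proteins, other lipocalins with the major urinary proteins, Bpif proteins, WAP-domain proteins and secretoglobins. Their 80 genes held 18.5% of the FPKM sum in the mixed, 49.97% in the female and 17.9% in the male pool. Beside them, 5 of the top 30 were sustentacular markers, 3 were mature neuron markers and 2 were ribosomal proteins, and no odorant receptor was among them.

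Gm14743, a lipocalin-family gene model, ranked first at a mean of 29450.4 ± 38208 FPKM. It had 7705 FPKM in the mixed, 73568 in the female and 7079 in the male pool. Its transcript is 99.3% identical to that of Obp1b, a neighbouring odorant-binding protein gene that has no value here, so fragments of both may be counted under Gm14743. Obp1a, an odorant-binding protein secreted in the nose, ranked second with 7458 FPKM in the mixed, 47418 in the female and 4869 in the male pool. Gm14744 had 6129, 39636 and 5718 FPKM in the mixed, female and male pools, and 5430402E10Rik, whose transcript is 99.1% identical to it, had 2391, 37059 and 2038 FPKM. Gm5938, at rank 43 and 87.6% identical to Obp1a, had 745 FPKM in the mixed, 1989 in the female and 113 in the male pool. Together these 5 genes held 4.71% of the sum in the mixed, 29.1% in the female and 3.78% in the male pool.

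The X-linked genes were 6.93-fold (Gm14744) to 18.2-fold (5430402E10Rik) higher in the female than in the male pool. The mixed pool, with as many epithelia of females as of males, was not between them in proportion: it was 1.07- to 1.53-fold above the male pool for 4 of the genes and 6.56-fold for Gm5938. So for 4 of the 5 genes the mixed and the male pool lay together and the female pool stood apart. Gm14744 and 5430402E10Rik, both among these 4, have transcripts 99.1% identical, so how fragments were divided between them is uncertain. The 6.93- and 18.2-fold values are therefore uncertain too, and this pair may not count as separate genes.

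Of the other lipocalins, Lcn13 (Obp2a) and Lcn14 (Obp2b), a neighbouring pair on chromosome 2 with transcripts 76.2% identical, were high in every pool. Lcn13 had 15248 FPKM in the mixed, 14954 in the female and 6257 in the male pool, and Lcn14 had 8716, 11813 and 3562. The male pool was thus the lowest for both, and the mixed pool was close to or above the female one for Lcn13. Mup4 and Mup5, members of the major urinary protein family known from liver and glands, had 4400 and 3768 FPKM in the mixed, 24371 and 19990 in the female and 4820 and 2945 in the male pool, whereas Mup6 averaged 3.76 ± 3.89 FPKM. Lcn11 had 1456 FPKM in the mixed, 6618 in the female and 1356 in the male pool.

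Lcn3 and Lcn4, known in mouse from glands of the vomeronasal organ and the nasal septum, ran the other way. Lcn3 had 4941 FPKM in the mixed, 89.0 in the female and 1250 in the male pool, and Lcn4 had 2563, 26.8 and 541 FPKM. Lcn2, an iron-siderophore-binding lipocalin of inflamed epithelia and neutrophils, had 36.1 FPKM in the mixed, 10.6 in the female and 257 in the male pool. Each pool was thus the richest in some lipocalin. At a 4-fold difference of FPKM + 1, 9 of the 14 lipocalins that averaged 1 FPKM or more were higher and 3 lower in the female than in the male pool, where 0.195% and 0.181% of all genes passed. Between the mixed and the female pool, 2 were higher and 7 lower in the mixed pool, where 0.506% and 0.34% of all genes passed. Between the mixed and the male pool, 2 were higher and 1 lower, against 0.145% and 0.26% of all genes. The lipocalin median for female over male was 2.33, and 2.80 after median-of-ratios scaling.

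Bpif proteins are secreted relatives of bactericidal and lipid-binding proteins. Plunc, a surfactant and antimicrobial protein of the upper airway, averaged 11524 ± 2971 FPKM, with 12865 in the mixed, 8119 in the female and 13590 in the male pool. Rya3 (Bpifb3), Gm1006 (Bpifb4) and Bpil3 (Bpifb6) averaged 2266 ± 381, 1367 ± 324 and 483 ± 41.3 FPKM, and none of these 4 differed by more than the 1.67-fold of Plunc between pools. The neighbours 4833413D08Rik (Bpifb9a) and 5430413K10Rik (Bpifb9b) differed most. The first had 290 FPKM in the mixed, 8837 in the female and 6795 in the male pool, and the second had 2736 in the mixed pool and was listed at 0 in the female and the male pool. Their transcripts are 99.3% identical, so how fragments were divided between them is uncertain, and their summed level was 3026, 8837 and 6795 FPKM.

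Expi, a WAP-domain protein (a family of small protease inhibitors), came next after Obp1a but with a wide spread, at 2739 FPKM in the mixed, 36508 in the female and 16706 in the male pool. Wfdc2, the next member, had 323, 279 and 428 FPKM. Scgb1c1, a secretoglobin of the nose, was steadier than Expi at 6906 FPKM in the mixed, 8549 in the female and 10806 in the male pool, and was 99.0% of the secretoglobin sum. Scgb1a1, the club cell secretoglobin of the lung, was listed at 0 in the mixed and the female pool and at 0.222 FPKM in the male pool. Vmo1, a secreted protein related to an egg vitelline membrane protein, averaged 2335 ± 420.0 FPKM. Mucin genes, which encode the gel-forming and membrane-bound glycoproteins of mucus, were low: Muc5b, the most abundant, averaged 19.8 ± 9.72 FPKM, Muc1 13.8 ± 6.26 and Muc2 9.13 ± 7.52, and Muc5ac, the goblet cell mucin of the airway, 1.26 ± 0.999.

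**Figure D2:**
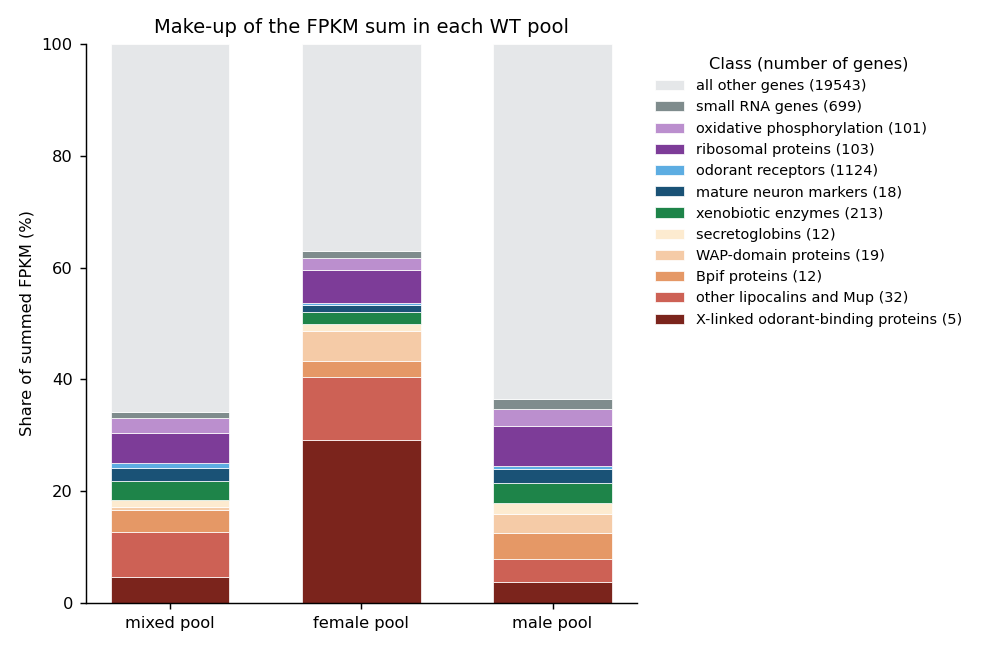
Share of the summed FPKM (%) held by each gene class in the mixed, female and male WT pool, as stacked bars that add to 100%; the number of genes is in brackets. The 5 secreted classes (red to cream) reach 49.97% in the female pool, against 18.5% in the mixed and 17.9% in the male pool.

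Sustentacular enzymes also stood high in the ranking, interleaved with neuron markers such as S100a5 and Omp. The median CV of the markers of these cells was 19.4%, against 15.3% for all genes at 100 to 300 FPKM and 17.8% at 300 to 1000 FPKM, and Cyp2a5 and Ugt2a1 were steadier than that. Cyp2a5, a cytochrome P450 that oxidises odorants and nicotine, had 5274 FPKM in the mixed, 4551 in the female and 5403 in the male pool, a coefficient of variation (CV, SD over mean) of 9.05%. Cyp2a4, a close relative of Cyp2a5, averaged 3.47 FPKM, and fragments of such copies can be assigned to either. Cyp2g1, a P450 found in olfactory mucosa, had 2542, 2047 and 3090 FPKM, and Ugt2a1, the olfactory UDP-glucuronosyltransferase, had 1881, 1722 and 2096 FPKM in the mixed, female and male pools. The female pool was the lowest for each, and the highest pool was at most 1.51 times the lowest, for Cyp2g1. Cbr2, a carbonyl reductase, averaged 2612 ± 636 FPKM, and Gpx6, a glutathione peroxidase of the olfactory epithelium, 1585 ± 249.7.

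All 17 sustentacular markers had a mean of at least 10 FPKM and 12 at least 100, from Cyp2a5 down to Ermn at 24.6 ± 3.64. They held 3.24% of the sum in the mixed, 1.94% in the female and 3.47% in the male pool. With the 80 secreted genes taken out of the sum, the shares were 3.97% in the mixed, 3.87% in the female and 4.23% in the male pool. The marker median for female over male was -0.48, against -0.41 for all genes, and 0.00 after median-of-ratios scaling.

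Families of xenobiotic metabolism, some of whose members are also sustentacular markers, were each led by few genes. Of 105 cytochromes P450, 32 reached 1 FPKM and 5 reached 100: Cyp2f2 averaged 1241 ± 164 FPKM, Cyp1a2 342 ± 78.5 and Cyp2e1 101 ± 17.0. Cyp2a5 alone held 52.2% of the P450 sum. Glutathione S-transferases were led by Gstm1 at 932 ± 203 FPKM, sulfotransferases by Sult1c1 at 314 ± 80.4, aldehyde dehydrogenases by Aldh2 at 503 ± 122, carboxylesterases by Ces1d at 376 ± 47.4 and flavin monooxygenases by Fmo6 at 153 ± 34.4. Of 18 UDP-glucuronosyltransferases, 2 reached 10 FPKM, and Ugt2a1 held 93.7% of that family's sum. The 213 xenobiotic genes held 3.33% of the sum in the mixed, 2.09% in the female and 3.56% in the male pool.

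Mature olfactory neurons were represented by all 18 of their markers, each with a mean of at least 10 FPKM. S100a5, a calcium-binding protein of olfactory neurons, had 3372 FPKM in the mixed, 2827 in the female and 3918 in the male pool. Omp, the olfactory marker protein, had 2977, 1800 and 2926 FPKM, and Stoml3, a stomatin-like protein of the sensory cilia, had 1814, 1025 and 1773 FPKM in the mixed, female and male pools. The mixed and the male pool were close for Omp and Stoml3, whereas for S100a5 the mixed pool lay between the others. The female pool was the lowest for each of these genes. The female pool was the lowest for 18 of 18 neuron markers and for 17 of 17 sustentacular markers, against 81.9% of all genes. After median-of-ratios scaling 14 of the 18 neuron markers were higher in the mixed than in the female pool, and the ratio of their sums, mixed over female, was 0.965, against 1.54 as deposited. In bulk tissue, fewer cells of a type and less RNA per cell cannot be told apart.

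The markers held 2.40% of the sum in the mixed, 1.17% in the female and 2.38% in the male pool. Without the 80 secreted genes the shares were 2.94, 2.35 and 2.90% in the mixed, female and male pools, an average of 2.73% ± 0.333. Their median for female over male was -0.79, against -0.41 for all genes. It was -0.31, against 0.00, after median-of-ratios scaling and -1.18, against -0.73, after scaling to equal sums. The sum of the sustentacular markers was 135% of the neuron marker sum in the mixed, 165% in the female and 146% in the male pool.

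The transduction cascade was present from receptor to recovery, with all 22 of its genes at 1 FPKM or more. Of the G protein that couples the receptors, the alpha subunit Gnal had 555 FPKM in the mixed, 170 in the female and 364 in the male pool, Gnb1 averaged 679 ± 237 and Gng13 1201 ± 158. Adcy3, the adenylyl cyclase, averaged 205 ± 86.0 FPKM. The cyclic nucleotide-gated channel that cAMP opens had its subunits at unequal levels, with Cnga2 at 286 ± 69.0, Cnga4 at 145 ± 44.8 and Cngb1 at 45.8 ± 23.1 FPKM. The other channel genes of this family, Cnga1, Cnga3 and Cngb3, which serve rods, cones and guanylyl cyclase neurons, were below 0.1 FPKM on average.

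Downstream, Ano2, the calcium-activated chloride channel that amplifies the response, averaged 70.0 ± 23.9 FPKM, and Slc12a2, which encodes NKCC1, had 83.3 FPKM in the mixed, 36.0 in the female and 40.2 in the male pool, at rank 1343. Among proteins that end the response, Pde1c and Pde4a, which break down cAMP, averaged 69.9 ± 26.7 and 81.9 ± 52.5 FPKM, the sodium-calcium exchanger Slc24a4 27.5 ± 10.7 and the receptor kinase Adrbk2 4.39 ± 1.16. Camk2b was the lowest of the cascade at 1.20 ± 0.675 FPKM.

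Odorant receptors were the most numerous family and a small part of the sum. Of 1124 receptor genes in the table, 769 averaged 1 FPKM or more, 60 at least 10 and 0 at least 100, and 40 were listed at 0 in every pool. They held 0.837% of the sum in the mixed, 0.375% in the female and 0.694% in the male pool. The median receptor had 1.82 FPKM, and the quartiles were 0.775 and 3.73 FPKM. As each receptor is expressed by a small set of neurons, a level here does not separate the number of neurons from the RNA in each.

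Olfr533 was the most abundant receptor in each of the 3 pools, at 86.1 FPKM in the mixed, 58.8 in the female and 88.4 in the male pool, 42.8 times the median receptor. Olfr1507 had 28.1, 41.0 and 49.8 FPKM, and Olfr309 had 42.5, 32.0 and 33.9 FPKM in the mixed, female and male pools. Olfr727 had 10.7 FPKM in the mixed pool, where it ranked 75 among receptors, against 43.8 in the female and 45.1 in the male pool. Olfr1301 averaged 31.8 ± 6.92 FPKM, Olfr1463 30.4 ± 12.7 and Olfr166 29.7 ± 2.80, and the next 8, from Olfr1110 to Olfr6, lay between 23.0 and 17.6 FPKM. So the order near the top differed between pools, and 6 of the 15 were among the 15 highest in all 3.

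The receptor sum was spread over many genes. The top 15 held 12.5% of it, 160 receptors held 50% and 622 held 90%, and in single pools 50% was held by 173 receptors in the mixed, 134 in the female and 141 in the male pool. Class I receptors, the fish-like class of a single cluster on chromosome 7, were taken as Olfr543 to Olfr692, and all others as class II, the class of land vertebrates. Membership was set by the number alone and was not checked further. By this division class I receptors were lower than class II receptors. The 115 class I genes had a median of 0.929 FPKM and held 3.82% of the receptor sum, and the 1009 class II genes had a median of 2.07 FPKM and held 96.2%. The highest class I receptor, Olfr672, averaged 8.05 FPKM. By chromosome, the 291 receptors of chromosome 2 held 26.3% and the 237 of chromosome 7 held 19.0% of the receptor sum.

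Receptor values varied between pools more than those of most genes. Their median CV was 40.5% among those averaging 1 FPKM or more, whose median level was 2.82 FPKM, against 34.3% for all genes at 1 to 3 FPKM and 30.1% at 3 to 10 FPKM. Correlations of log2(FPKM + 1) over receptors were 0.70 between mixed and female, 0.75 between mixed and male and 0.89 between female and male pools, lowest with the shallow mixed pool. Receptor genes resemble each other, so the assignment of fragments to a single receptor is uncertain. The sum was steadier beside the neuron markers: it was 34.9% of the marker sum in the mixed, 31.9% in the female and 29.1% in the male pool.

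**Figure D3:**
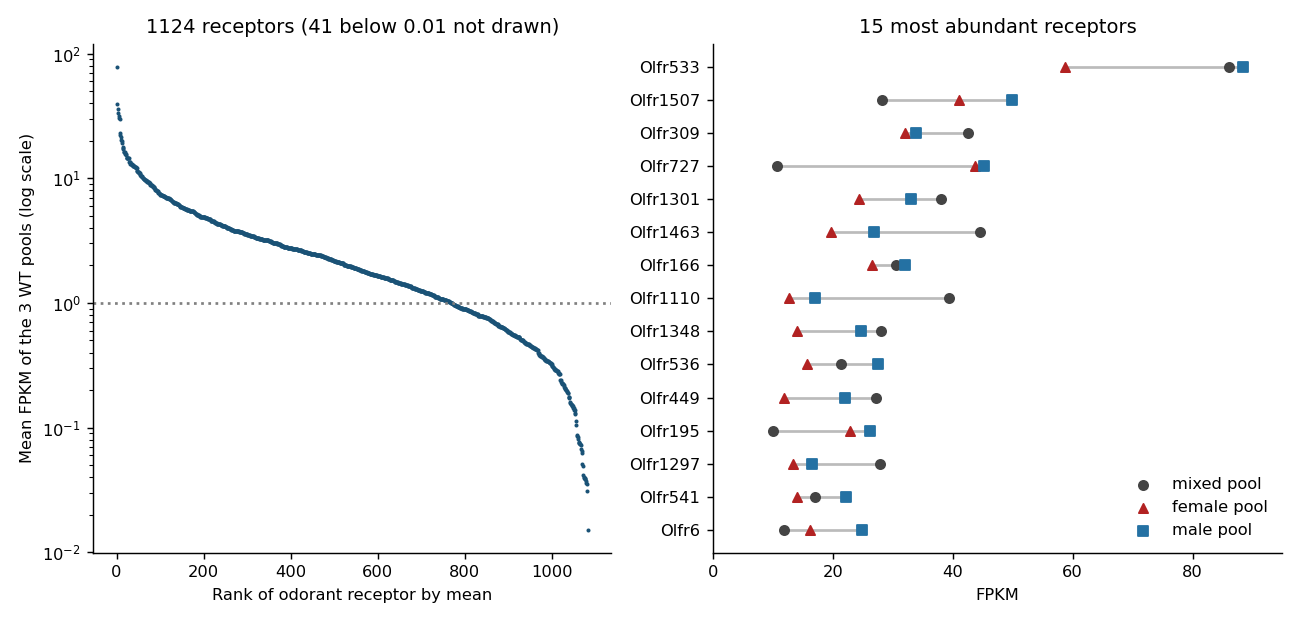
Left, mean FPKM (log axis) of the odorant receptors by rank; right, FPKM of the 15 most abundant receptors in the mixed, female and male WT pool. The levels fall smoothly below a few high receptors, 769 receptors lie at or above the dotted line at 1 FPKM, and Olfr727 is far lower in the mixed pool than in the other two.

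Other chemosensory receptors were scarce. Of 15 trace amine-associated receptors, which detect volatile amines, 7 reached 1 FPKM, led by Taar6 at 5.26 ± 1.70. None of 221 vomeronasal type 1, 121 vomeronasal type 2 and 6 formyl peptide receptors reached 1 FPKM. Trpc2, the transduction channel of vomeronasal neurons that also occurs in a few neurons of the main epithelium, averaged 3.07 ± 1.07 FPKM. Of the genes of guanylyl cyclase neurons, Gucy2d averaged 0.646 ± 0.227 FPKM, whereas Car2, which other cells of the epithelium also express, averaged 55.9 ± 3.67.

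Genes of receptor choice and trafficking were all above 1 FPKM. Atf5, a stress-response transcription factor that receptor expression induces, was the highest transcription factor of the lists at 1036 FPKM in the mixed, 462 in the female and 840 in the male pool. The chaperones Rtp1 and Rtp2, which bring receptors to the surface, averaged 208 ± 67.5 and 168 ± 35.5 FPKM, and Ric8b, which assists Gnal, 227 ± 87.5. Lhx2, which binds receptor enhancers, had 174, 58.4 and 121 FPKM in the mixed, female and male pools. The Ebf factors, its partners there, averaged 76.8 ± 47.9 (Ebf3), 67.1 ± 36.1 (Ebf2), 57.5 ± 39.3 (Ebf4) and 29.7 ± 15.4 (Ebf1). The female pool was the lowest for all 18 genes of this list, against 81.9% of all genes, with a median of 1.16 for mixed over female, against 0.56 for all genes, and 0.50 after median-of-ratios scaling.

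The genes of axon sorting and adhesion were led by Kirrel2, an adhesion protein whose level follows neuronal activity, with 267 FPKM in the mixed, 177 in the female and 392 in the male pool. Cntn4, a contactin, averaged 67.9 ± 34.4 FPKM. Efna3 was the highest ephrin at 148 ± 49.6 FPKM and Sema7a the highest semaphorin at 63.8 ± 14.7.

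Immature neurons and basal cells came at lower levels. Stmn1, a microtubule-destabilising protein of growing neurons, averaged 238 ± 76.1 FPKM, Tubb3 141 ± 45.8 and Gap43, a growth cone protein, 54.3 ± 23.3. The 15 immature markers had a median of 42.1 FPKM, against a median of 207 FPKM for the mature markers, and their sum was 9.64% of the mature sum in the mixed, 9.17% in the female and 7.46% in the male pool. Among progenitor factors, Neurog1 averaged 2.62 ± 1.33 FPKM and Neurod1 5.73 ± 2.52, with Hes6 the highest at 43.3 ± 6.36. The mixed pool was the highest for 9 of the 10 genes of this list, against 65.7% of all genes, and their median for mixed over male was 0.70, against 0.16 for all genes, and 0.53 after median-of-ratios scaling.

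Markers of dividing cells were low except Pcna, a replication and repair factor, at 53.9 ± 7.97 FPKM. Mki67 averaged 1.28 ± 0.971 FPKM and Top2a 3.68 ± 1.63. Horizontal basal cells were marked by Krt5 at 28.9 ± 8.96 and Krt14 at 16.4 ± 4.13 FPKM, with Trp63, their master regulator, at 7.26 ± 2.56. Lgr5, found in some globose basal cells, averaged 2.17 ± 0.979 FPKM.

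Markers of further epithelial cell types spanned a wide range of levels. Of 15 multiciliated markers, which mark respiratory epithelium, 14 reached 1 FPKM, and their master regulator Foxj1 averaged 56.5 ± 12.5. Ionocyte-like markers were present, with Ascl3 at 40.6 ± 12.7, Foxi1 at 7.15 ± 1.76 and Cftr at 3.39 ± 1.25 FPKM, and Coch at 131 ± 6.84. Tuft-like markers were lower, with Trpm5 at 3.21 FPKM in the mixed, 1.74 in the female and 3.01 in the male pool and Pou2f3 at 2.51 ± 1.16 FPKM, and Sucnr1 listed at 0. Of the goblet and club cell markers, Reg3g, an antimicrobial lectin, averaged 966 ± 319.6 FPKM and Agr2 249 ± 33.4, whereas Tff3 and Clca3 were listed at 0. The median of the gland list was 978 FPKM, the highest of the 23 lists, but most of that list are the lipocalin and Bpif genes described above, and Sox9, a transcription factor of Bowman's glands, averaged 7.18 ± 1.79.

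Cells from under the epithelium were also in the samples. Fibroblast markers were led by Col1a2 at 298 ± 131, Dcn at 257 ± 11.8 and Col1a1 at 255 ± 155 FPKM. Bone markers were present too, with Spp1, which immune and epithelial cells also make, at 261 ± 21.0, Bglap, the osteocalcin of osteoblasts, at 154 ± 8.34 and Ibsp at 55.3 ± 17.4 FPKM. Ensheathing glia of the olfactory nerve had Fabp7 at 103 ± 21.0, S100b at 24.8 ± 1.16 and Sox10 at 13.6 ± 2.31 FPKM. Each of these markers was above 1 FPKM in all 3 pools.

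Immune cell markers included macrophage genes, with Lyz2 at 418 ± 142 FPKM, 57.1% of that list's sum, and C1qa at 21.7 ± 4.28 FPKM. Neutrophil genes were present too, with S100a9 at 146 ± 44.3 and Ngp at 16.4 ± 6.75 FPKM. Igj, the joining chain of secreted immunoglobulin, had 21.5 FPKM in the mixed, 42.7 in the female and 72.0 in the male pool. None of 7 T and NK cell markers reached 1 FPKM, and Cd3e was listed at 0 in the mixed pool. Red blood cell genes varied with the pool: Hba-a1, an alpha globin, had 363 FPKM in the mixed, 109 in the female and 1592 in the male pool, and the 7 erythroid markers summed to 484, 354 and 2521 FPKM. Hba-a2 is a near-identical copy, so the division between both alpha globins is uncertain. The erythroid values were thus the highest in the male pool, and their part in its immune values was not tested.

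Skeletal muscle and vomeronasal markers were mostly near 0, and those of the olfactory bulb were mixed. Of 6 skeletal muscle markers, Mylpf reached 1 FPKM at 1.55 ± 0.305 and Myh1 was listed at 0. Of the 9 markers of the olfactory bulb, 7 reached 1 FPKM and 2 reached 10. Neurod6 and Tbr1, of projection neurons of bulb or cortex, were at 0.0877 and 0.338 FPKM and Gfap, an astrocyte filament, at 1.43, while Slc1a2, a glutamate transporter of astrocytes, averaged 13.5 FPKM and Aqp4, a water channel that supporting and basal cells of the epithelium also express, had 101 FPKM in the mixed, 63.4 in the female and 94.8 in the male pool. Vmn2r1, Vmn1r50 and Vmn1r51 were listed at 0.

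**Figure D4:**
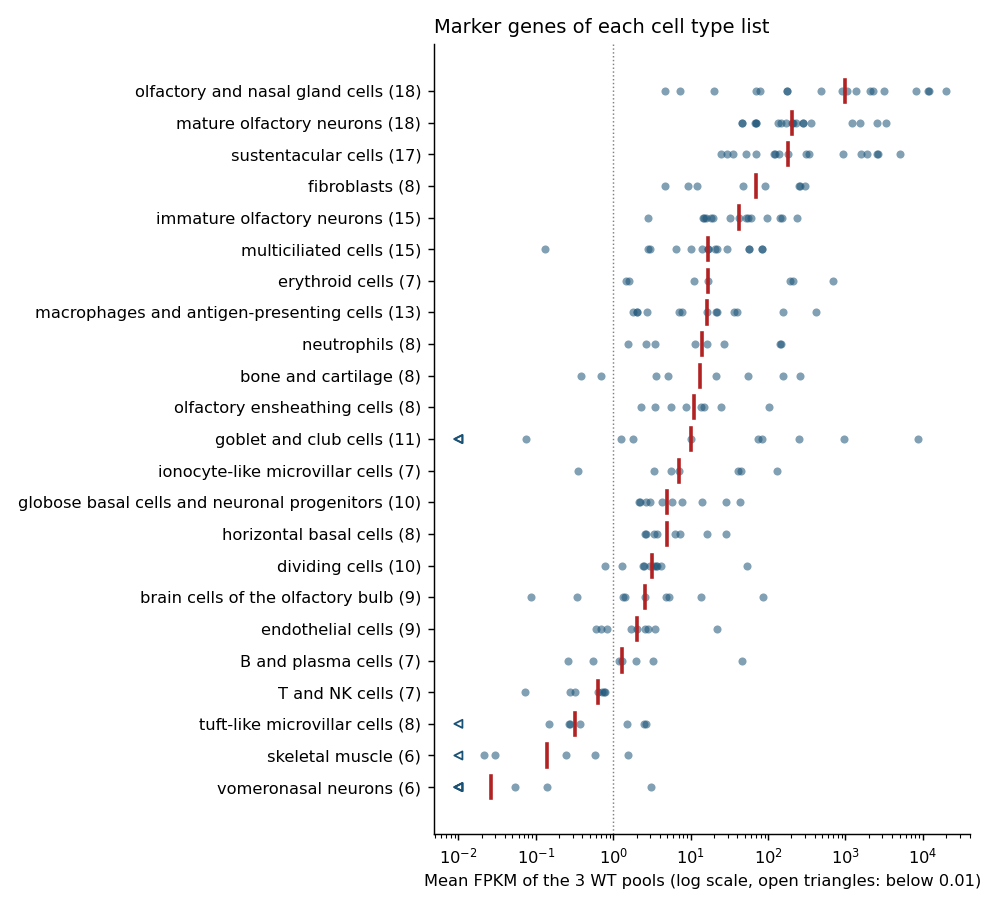
Mean FPKM over the 3 WT pools (log axis) of each marker gene (blue points) of the 23 cell type lists, ordered by the list median (red bar); the number of markers is in brackets, the dotted line is 1 FPKM and open triangles lie below 0.01. Gland, mature neuron and sustentacular markers lie at the top, and T cell, tuft-like, muscle and vomeronasal markers at the bottom.

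Ribosomal proteins and the respiratory chain held several percent of each pool. The 103 ribosomal protein genes held 5.36% of the sum in the mixed, 5.99% in the female and 7.03% in the male pool, led by Rplp1 at 1770.2 ± 497 and Rpl41 at 1709.7 ± 493 FPKM. Ribosomal genes have many processed copies, so the values of single genes are uncertain. Of 96 ribosomal genes averaging 1 FPKM or more, 68 were the highest in the female pool, against 5.85% of all genes. The mixed pool was the lowest for 82 of them, against 13.3% of all genes. Their median for female over male was 0.13, against -0.41 for all genes. It was 0.60, against 0.00, after median-of-ratios scaling and -0.26, against -0.73, after scaling to equal sums, where the direction turns. The 101 genes of oxidative phosphorylation held 2.71% in the mixed, 2.16% in the female and 3.08% in the male pool, with Cox8a first at 606 ± 70.2 FPKM. Tmsb4x, which sequesters actin, averaged 2564 ± 301 FPKM, Eef1a1, an elongation factor, 2181 ± 585 and Tpt1, a translationally controlled protein, 1757 ± 178.

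Mir703 ranked 12 at 7152 ± 2012 FPKM, with 4965 in the mixed, 7565 in the female and 8926 in the male pool. It is a microRNA gene of 109 bases, about the 101-base read length, and FPKM of such short genes are unstable. Its mature form as RefSeq gives it (build GRCm38.p6, chr5:98475616-98475636, minus strand), with the seed, bases 2 to 8, in capitals, is shown because the gene is in the top 30. The FPKM refer to the whole gene and not to this mature form.
mmu-miR-703: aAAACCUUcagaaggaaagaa
Of 574 microRNA genes, 4 reached a mean of 1 FPKM. Snora33 had 868 FPKM in the female pool and was listed at 0 in the mixed and the male pool, and Mir20a had 358 FPKM in the male pool and was listed at 0 in the others. Of 15 genes listed at 0 in a pool and at 20 FPKM or more in another, 12 were small RNA genes.

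The spread between pools was measured for each gene. The median CV of the 13837 genes was 26.8% and the median ratio of the highest to the lowest pool was 1.57 (1.21 without the female pool and 1.93 with pools rescaled to equal sums), and 150 genes (1.08%) reached a ratio of 4. The spread was smallest at 100 to 300 FPKM, with a median CV of 15.3%, and was 34.3% at 1 to 3 FPKM. It rose again at the top: 11 of the 39 genes of at least 1000 FPKM (28.2%) reached a ratio of 4. Among genes averaging 20 FPKM or more, the 10 steadiest were Snrpg, Acadsb, Psma4, Gstz1, Tmem218, Cmpk1, Tmem212, Bet1, Cstb and Ndufc1, with CVs of 0.223 to 1.19%. Snrpg, a core spliceosome protein, had 143 FPKM in the mixed, 144 in the female and 143 in the male pool.

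Of the most variable genes, several are small RNAs or near-identical pairs named above. Others were Chi3l4, a chitinase-like protein of airway inflammation, with 2.34 FPKM in the mixed, 6.31 in the female and 154 in the male pool, and Dnase1, a secreted nuclease, with 8.55, 144 and 17.1 FPKM. A630073D07Rik, a gene model, had 13.2 FPKM in the mixed, 710 in the female and 50.3 in the male pool. Genes of the sex chromosomes gave a check of the labels of the female and the male pool. Xist, the non-coding RNA of the inactive X, had 42.2 FPKM in the mixed, 25.7 in the female and 0.0427 in the male pool, and the Y-linked Eif2s3y had 19.7, 0 and 23.8 FPKM. Xist was thus near 0 in the male pool and the Y-linked genes were at 0 in the female pool. The mixed pool held both kinds, with Xist above the female pool, so these values do not check its proportion of the sexes. Ddx3y had 5.22 FPKM in the mixed pool, was listed at 0 in the female pool and had 8.07 FPKM in the male pool. BC018473, a non-coding gene listed at 0 in the female pool too, had 16.8 FPKM in the mixed and 17.9 in the male pool.

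**Figure D5:**
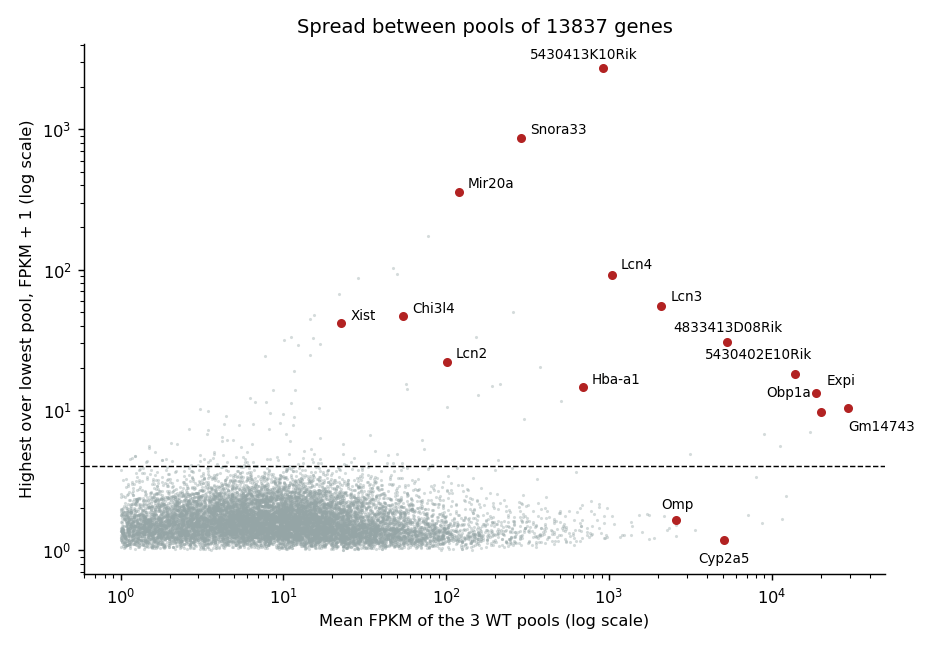
Ratio of the highest to the lowest WT pool (FPKM + 1, log axis) against the mean FPKM (log axis) for the 13837 genes averaging 1 FPKM or more (grey), with named genes in red and a dashed line at 4-fold. Most genes lie near the median ratio of 1.57, whereas the X-linked odorant-binding genes, Lcn3, Lcn4 and Snora33 lie above the line.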

How the data were processed

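The authors deposited 1 table of FPKM values, a row for each gene symbol and a column for each library. No unit is named in it, so FPKM was inferred from the form of the header, the values and the software. TopHat2 2.0.7, Bowtie, Cufflinks 1.3.3, Cuffdiff and build mm9 were used, per the submitters' processing notes. For settings, annotation and scaling, the entry is: not given in the sources used here. Columns were matched to libraries by sex in the name, and the wild-type column that names no sex was taken as the mixed pool, the only wild-type library left. The other 3 columns were not used.

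Values were summarised with Python 3.11.15, pandas 2.3.3 and numpy 2.4.6. Repeated symbols were reduced to their most abundant row, which dropped 429 rows. Folds were taken on FPKM + 1 among genes averaging 1 FPKM or more. RefSeq names matched 19355 symbols directly and 2286 by an older name, and 240 had no match. Depth was estimated from the step between low values of genes whose transcript has at least 1200 bases, less 150 bases for fragment ends. As only about 48.3 to 48.9% of low values lay close to a whole fragment, depths are rough and no interval is given. The reduction of repeated symbols, the ranking and the fold cutoff were run on simulated data without noise. The depth estimate, scaling, gene lists and motif search were not tested in this way.

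Families were defined by symbol patterns, from which unrelated symbols were removed after the matches were seen, and Gm14743, Gm14744, Gm5938, 5430402E10Rik and Pbsn were added to the lipocalins by RefSeq name or neighbourhood. The members, the 23 cell type lists and the 8 functional lists were chosen with earlier results of these data known. Named were the 30 most abundant genes, up to 5 top members per family or list, the 15 highest receptors, the 10 steadiest and 10 most variable genes averaging 20 FPKM or more, the 10 largest ratios in each direction between the female and the male pool among genes averaging 10 FPKM or more, and defining markers near 0. Further members of the lists were named after their values were seen. The 3 pools make up 1 group of 3 kinds, so no test was made. Alternatives changed the scaling, the pools used, repeated symbols, small RNAs, filters and pseudocounts.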

Additional observations from a re-analysis of the deposited data

How the results depend on the processing

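Of 111 alternatives over 12 results, 101 stayed within 1 SD between pools, or within 1.5 times for counts, and 10 did not. Some of the 101 could not move, so their number does not measure stability. A gene past 4-fold on FPKM + 1 always averages at least 1 FPKM, so lowering or dropping the filter leaves the 3 counts past 4-fold unchanged. The number of genes past 4-fold between the mixed and the female pool was 117, and it was 337 with pools rescaled to the same summed FPKM, 217 with a pseudocount of 0.5 and 395 with a pseudocount of 0.1. With a pseudocount of 0.1 the number was 125 in place of 56 between the mixed and the male pool, and 96 in place of 52 between the female and the male pool. With the 10 most abundant genes taken out of both the denominator and the marker lists, gland markers held 4.68% in place of 11.0% of the sum. Obp1a, Lcn13 and Plunc left the gland list in this way. Sustentacular markers, none of which is among those 10 genes, held 3.79% in place of 2.79%. With the 5 secreted classes out of the denominator, an alternative chosen after seeing the data, mature neuron markers held 2.76% in place of 1.91%, sustentacular markers 4.03% in place of 2.79% and odorant receptors 0.882% in place of 0.610%. Leaving out 1 pool was run for 9 of the 12 results, not for the 3 counts past 4-fold, and those 9 stayed within these bounds. For the shares the bound is the SD of the same 3 pools, which leaving out 1 of them can hardly exceed. That outcome therefore says nothing on how stable the shares are. For the share of the 10 most abundant genes the bound, an SD of 18.1, is itself set by the female pool: the share was 26.3%, 15.4% without the female pool, 31.8% without the mixed and 31.9% without the male pool. The median ratio of the highest to the lowest pool was 1.57, 1.21 without the female pool and 1.93 with pools rescaled to the same summed FPKM. No paired analysis was possible because the 3 pools form 1 group and no second group was compared. The mixed pool is the shallowest, which limits low genes and single receptors, and nuclease normalisation lowers abundant genes to an extent that was not measured.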

Other observations

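Genes of water and ion transport were led by the sodium-potassium pump, whose subunit gene Atp1b1 averaged 497 ± 152 FPKM (SD, n = 3 pools). Of 11 aquaporins, 5 reached 1 FPKM, and of the highest Aqp3 averaged 207 ± 43.9 FPKM, Aqp5, a water channel of gland cells, 178 ± 22.5 and Aqp1 95.6 ± 14.8, and the highest pool was at most 1.54 times the lowest among these 3, for Aqp3. Of 95 potassium channel genes, 45 reached 1 FPKM. Kcnc4, a voltage-gated potassium channel, had 156 FPKM in the mixed, 45.1 in the female and 106 in the male pool. Scn4b, a sodium channel beta subunit, had 90.5 FPKM in the mixed, 32.8 in the female and 78.7 in the male pool. The female pool was the lowest for both channels.

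Of 54 keratins, 12 reached 1 FPKM, and the pair of simple epithelia, Krt18 and Krt8, averaged 179 ± 30.1 and 137 ± 21.7 FPKM. Among transcription factors of the epithelium, Uncx, a homeobox factor, averaged 72.8 ± 31.6 FPKM, Otx2 43.8 ± 10.4, Sox2 35.4 ± 8.77 and Pax6 12.4 ± 2.69, whereas Fezf2 was listed at 0 in all 3 pools. Immediate early genes, which stimulation and handling induce, were led by Jund at 82.0 ± 23.9 FPKM, and Fos averaged 3.47 ± 0.676 and Egr1 3.63 ± 0.779. Of the niche signalling list, Hes1, a Notch target, averaged 29.6 ± 3.24 FPKM and Jag2, a Notch ligand, had 28.1 FPKM in the mixed, 8.21 in the female and 16.8 in the male pool.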
